A study of Bos taurus with 9 samples.

Results

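NPSR1 and GNAS are the genes of G protein signalling among the 47 genes that the study's authors list as differentially expressed in bovine blastocysts, and they were chosen by name from that list, 2 genes of 47. NPSR1 encodes the neuropeptide S receptor, a receptor that spans the cell membrane, and GNAS encodes the stimulatory G protein alpha subunit, which such receptors switch on. The libraries fall into 3 groups of 3, all labelled as Bos taurus embryos of female sex. The control group was labelled only as control. Embryos of the other 2 groups were cooled to a glass without ice crystals (vitrified) and warmed again, either without α-ketoglutarate (AKG), a metabolite of the citric acid cycle, or with it. These groups are called AKG-free and AKG-treated. The sources used here do not give the dose and timing of AKG, the breed, the age of the embryos or how many embryos made a library. The labels do not tie libraries to separate embryo batches, and the variation behind any p-value here is that of the 9 libraries and may be technical.

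In G protein signalling, a ligand outside the cell binds a receptor, and the receptor activates a G protein on the inner face of the membrane. The stimulatory alpha subunit then activates adenylyl cyclase, which makes the messenger cyclic AMP. The human neuropeptide S receptor raises both cyclic AMP and cell calcium when its ligand binds, and is best known from the brain, where it bears on arousal and anxiety. GNAS is an imprinted locus in mammals: it makes several transcripts from different promoters, some of them from only the maternal or only the paternal copy. In mouse oocytes, the stimulatory G protein keeps cyclic AMP high and thereby holds meiosis in arrest. The deposited values are 1 per gene and library, so they separate neither the transcripts nor the parental copies of GNAS.

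NPSR1 (ENSBTAG00000013768) lies on the minus strand of chromosome 4, from 62120709 to 62274639, and is annotated with 1 transcript. GNAS (ENSBTAG00000047223) lies on the minus strand of chromosome 13, from 57465320 to 57532635, and is annotated with 3 transcripts. These are positions of whole genes as deposited, with no genome build named. That annotation places GNAS in 49 KEGG pathways, among them cAMP signalling and calcium signalling, and places NPSR1 in 0. NPSR1 carries 7 gene ontology terms there, which include neuropeptide receptor activity and release of calcium into the cytosol. Overlapping genes were taken from the RefSeq annotation of the assembly ARS-UCD2.0, which may not be the build used. There the protein-coding gene LOC101909083 and the long noncoding RNAs LOC107133071 and LOC132346936 overlap GNAS. The long noncoding RNA LOC132345103, the small nuclear RNA LOC112446538 and the transfer RNA TRNAS-GGA overlap NPSR1. No label states stranded counting, so reads of a gene and of one that overlaps it could not be told apart.

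The libraries differed little in sequencing depth, while their levels of the listed gene S100A11 differed much. The composition of whole libraries cannot be seen from the listed genes alone. Relative depth, taken from the ratio of counts to FPKM, ran from 0.793 to 1.167 around a mean of 1. FPKM corrects fragment numbers for gene length and for the fragments mapped in a library, so it can be compared between genes. It does not correct for composition, and comparisons between libraries carry that limit. The abundant calcium-binding gene S100A11 stood at 23.4 to 25.1 FPKM in control libraries, at 57.4, 1178 and 1866 FPKM in AKG-free libraries 1, 2 and 3, and at 28.4 to 92.4 FPKM in AKG-treated libraries. Of 30 markers of blastocyst lineages, cumulus cells, blood, sperm and neurons, only PAG11, a trophoblast glycoprotein, is among the listed genes. Its levels were 0.984 ± 0.853 FPKM in control, 44.7 ± 22.0 FPKM in AKG-free and 7.10 ± 8.65 FPKM in AKG-treated libraries (SD, n = 3 each), highest in the group where NPSR1 and GNAS had their lowest means; its part in their levels was not tested. The other markers were not analysed here, so the tissue label could not be checked against its defining markers. The deposited gene list is named as coming from scRNA-Seq analysis, while the libraries are labelled as embryos. Where a library holds RNA of many cells, fewer cells that express a gene and less RNA per cell cannot be told apart.

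NPSR1, the receptor, was abundant in control blastocysts and had no reads in AKG-free blastocysts. The control libraries 1, 2 and 3 had 116, 23.2 and 93.6 FPKM, from 11420, 1645 and 7629 counts. All 3 AKG-free libraries had 0 counts. The AKG-treated libraries 1, 2 and 3 had 57.3, 0 and 0.128 FPKM, from 4630, 0 and 12 counts. NPSR1 was thus high in every control library and in AKG-treated library 1, and at or near 0 in the other 5 libraries, with nothing between.

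The control mean of NPSR1 was 77.7 ± 48.6 FPKM (SD, n = 3). This mean was set against a floor of 3 counts in each AKG-free library, which equals 0.0287 to 0.0330 FPKM. It was 2532-fold higher than the mean of the 3 floors. The lowest control library alone, control 2, was 755-fold above that mean floor. The floor sets the size of both values, which scale with it. Control and AKG-free libraries did not overlap. Among the 29 listed genes with a mean of at least 0.5 FPKM over the 9 libraries, 6 had all control libraries above all AKG-free libraries, or 20.7%. The authors' list was itself drawn from these libraries, so both comparisons with AKG-free libraries are descriptions and carry no test.

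The mean of NPSR1 in AKG-treated libraries, 19.1 ± 33.0 FPKM (SD, n = 3), rested on library 1, which held 99.7% of the group's NPSR1 counts. With it, the mean was 623-fold above the mean AKG-free floor. Without it, the mean was 0.0640 FPKM, which is 2.09-fold that floor. This mean rests on 12 counts in library 3 and 0 in library 2, so it shows no difference shared by both libraries. AKG-treated library 2, at 0 counts, was level with the AKG-free libraries, so these groups were not separate. The 12 counts of AKG-treated library 3 have an exact Poisson 95% interval of 0.0676 to 0.229 FPKM. The floors of the AKG-free libraries lie below that interval. Such intervals and floors cover counting error only, since the reads were amplified and carry no molecular identifiers. Control 2, the lowest control library, was 181-fold above AKG-treated library 3.

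GNAS, the G protein subunit that acts below such receptors, had reads in all 9 libraries and was lowest in AKG-free blastocysts. The control libraries 1, 2 and 3 had 2.65, 90.6 and 10.8 FPKM, from 506, 12493 and 1708 counts. The AKG-free libraries 1, 2 and 3 had 2.86, 0.817 and 0.834 FPKM, from 551, 145 and 171 counts. The AKG-treated libraries 1, 2 and 3 had 17.7, 2.95 and 38.5 FPKM, from 2785, 507 and 6851 counts. The highest libraries were control 2 and AKG-treated 3, and the lowest were AKG-free 2 and 3. Control 1 stood among the low libraries, just below AKG-free 1.

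**Figure D1:**
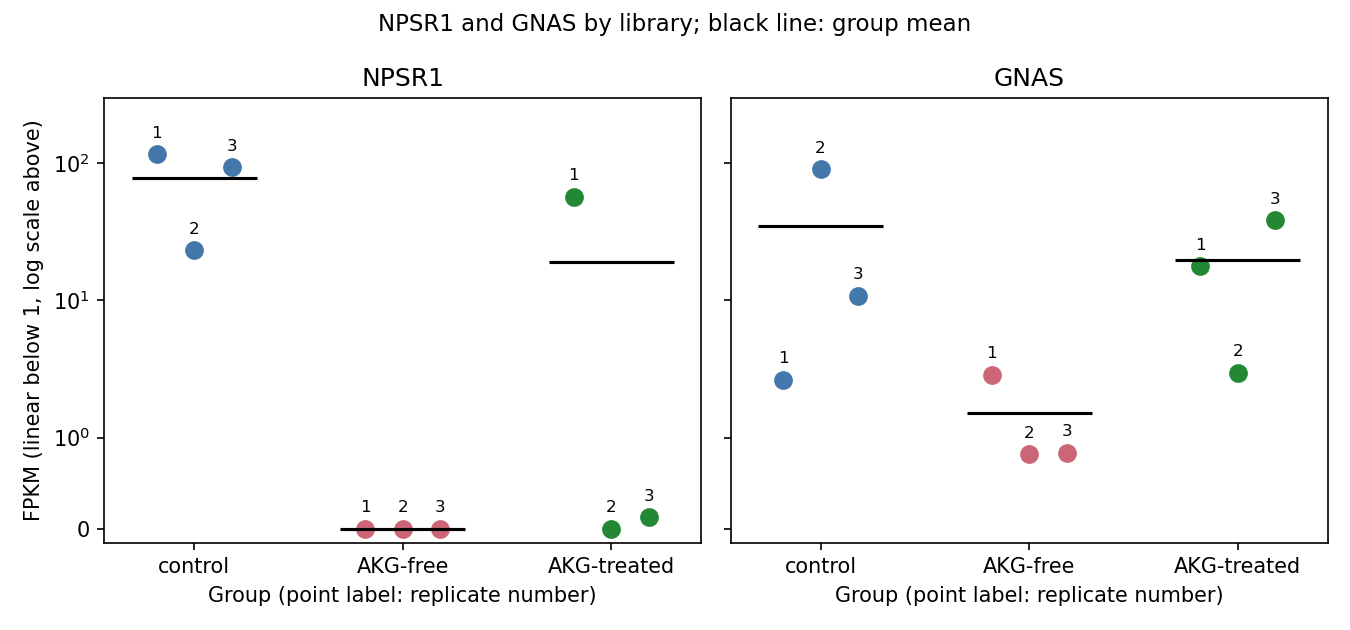
FPKM of NPSR1 (left) and GNAS (right) in each of the 9 libraries, by group, on an axis that is linear below 1 and logarithmic above; points are libraries with their replicate number and black lines are group means. NPSR1 is at 0 in all 3 AKG-free libraries and in AKG-treated library 2, while GNAS ranges from 2.65 to 90.6 FPKM within the control group alone.

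The GNAS mean was 34.7 ± 48.6 FPKM in controls, 1.50 ± 1.17 FPKM in AKG-free libraries and 19.7 ± 17.8 FPKM in AKG-treated libraries (SD, n = 3 each). By means, control libraries were 23.1-fold above AKG-free libraries. That ratio was 4.47 without control library 2, 42.0 without AKG-free library 1, and between 18.8 and 33.7 without each of the other 4 libraries. Control and AKG-free libraries overlapped, since AKG-free 1 exceeded control 1 by 0.210 FPKM. Counting error covers that gap: the exact Poisson 95% intervals were 2.43 to 2.89 FPKM for control 1 and 2.63 to 3.11 FPKM for AKG-free 1.

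AKG-treated libraries were 13.1-fold above AKG-free libraries in mean GNAS. The ratio was 6.87 without AKG-treated library 3 and 23.9 without AKG-free library 1. All AKG-treated libraries lay above all AKG-free libraries, which held for 7 of the 29 genes, or 24.1%. The separation rested on a gap of 0.0914 FPKM between AKG-treated 2 and AKG-free 1, a ratio of 1.03, and the Poisson interval of AKG-treated 2, 2.70 to 3.22 FPKM, overlapped that of AKG-free 1. AKG-free 1 was also the AKG-free library with the least S100A11, at 57.4 FPKM; whether what sets that library apart bears on its GNAS level was not tested.

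The order of the groups was not the same by every summary. For NPSR1 the order was control, AKG-treated, AKG-free by mean and by median, and the medians were 93.6, 0.128 and 0 FPKM. For GNAS the means gave control, AKG-treated, AKG-free, but the medians put AKG-treated first, at 17.7 FPKM, control next, at 10.8 FPKM, and AKG-free last, at 0.834 FPKM. Control and AKG-treated libraries of GNAS lay within each other's range. Over single libraries, control 1, AKG-free 1 and AKG-treated 2 could not be ordered beyond counting error, and neither could AKG-free 2 and 3.

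AKG-treated and control blastocysts were compared to ask which differences from controls are left in vitrified embryos given AKG. NPSR1 was lower in AKG-treated libraries by a log2 fold change of -2.02 (SE 2.61, 95% interval -8.45 to 4.41), and edgeR's quasi-likelihood test on the counts did not call it (adjusted p = 1). Without AKG-treated library 1 the log2 fold change was -10.21 (95% interval -16.43 to -3.99), with an edgeR adjusted p of 0.230. GNAS differed by -0.81 (SE 1.35, 95% interval -3.94 to 2.32, edgeR adjusted p = 1). It turned to 1.55 without control library 2 (edgeR adjusted p = 0.807), moved to -0.30 without AKG-treated library 2 and to -1.75 without AKG-treated library 3. Whether this comparison entered the authors' choice of genes is not known, so its p-values may not be independent of that choice. In the edgeR fit over all libraries, the 95% intervals are wide enough to hold equal levels and large changes in either direction for both genes.

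In that comparison edgeR called 0 of 29 listed genes higher and 0 lower, a background of 0% each way, with 2 genes at an unadjusted p under 0.05. DESeq2 called 1 gene, which was neither NPSR1 nor GNAS, and limma called 0. With a log2(FPKM + 1) scale in limma, NPSR1 gave -4.00 at an adjusted p of 0.542 and GNAS gave -0.14 at an adjusted p of 1. For NPSR1 the change on the log scale was thus larger than that from the counts.

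NPSR1 and GNAS did not keep the same order over the 5 libraries that had reads of both. In the control group their orders were opposite: control 1 was highest for NPSR1 and lowest for GNAS, and control 2 was lowest for NPSR1 and highest for GNAS. Per length, NPSR1 exceeded GNAS by 43.9-fold in control 1, 8.68-fold in control 3 and 3.23-fold in AKG-treated 1. GNAS exceeded NPSR1 by 3.91-fold in control 2 and by 300.3-fold in AKG-treated 3. Control 2 was also the library of least relative depth, 0.793. Whether depth bears on the order of the 2 genes there was not tested. In AKG-treated 2, GNAS was at its group's lowest level and NPSR1 was at 0.

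**Figure D2:**
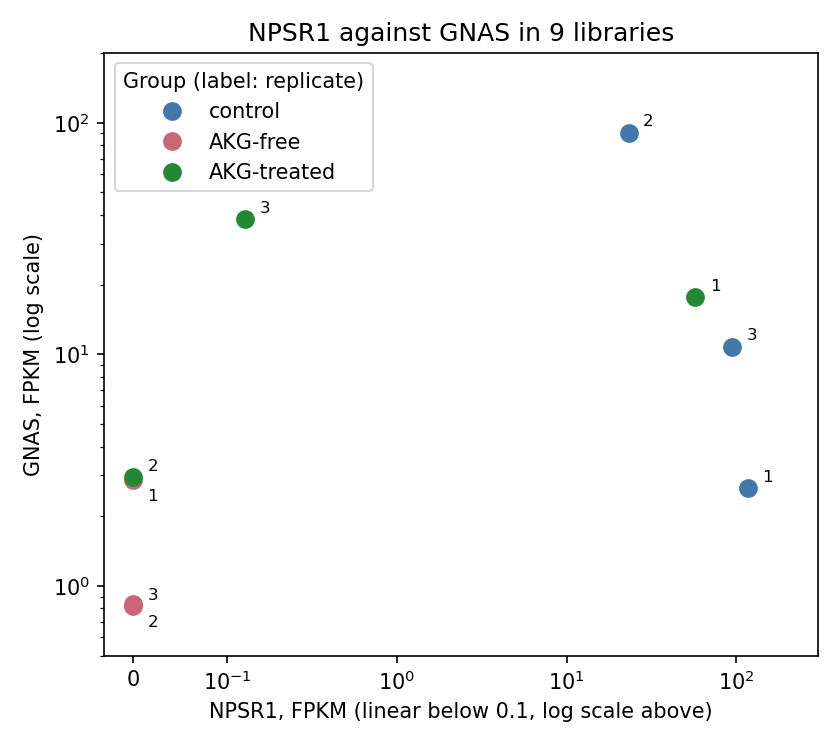
NPSR1 (x axis, FPKM, linear below 0.1 and logarithmic above) against GNAS (y axis, FPKM, logarithmic) in the 9 libraries, coloured by group and labelled with the replicate number. The 3 AKG-free libraries and AKG-treated 2 lie at 0 NPSR1 with at most 2.95 FPKM of GNAS, while AKG-treated 3 has 38.5 FPKM of GNAS with 0.128 FPKM of NPSR1.

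Both genes were among the most abundant listed genes in some libraries and among the least in others. By FPKM, NPSR1 ranked 1 of the 47 listed genes in control 1, 2 in control 3, 3 in AKG-treated 1 and 7 in control 2. GNAS ranked 2 in control 2, behind only NUCB2 at 111 FPKM, 5 in AKG-treated 3, 8 in AKG-treated 1 and 9 in control 3. It ranked 33 of the 36 genes with reads in AKG-free 2 and 28 of 30 in AKG-free 3. NPSR1 took 29.7% of the counts over the listed genes in control 1, and GNAS took 34.3% in control 2.

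The spread of GNAS within groups was wide beside that of other listed genes. In controls its coefficient of variation, the SD as a percent of the mean, was 140%, the first of the 21 genes that had reads in all 3 control libraries and a mean of at least 0.5 FPKM over the 9 libraries. The next was TPRG1 at 65.0%, and the median gene had 39.1%. NPSR1 had rank 5, at 62.5%. Genes with a control library at 0 are not ranked, among them ENSBTAG00000053922 at 111%, CYP27B1 at 96.4% and PAG11 at 86.7%. The highest control library of GNAS exceeded the lowest by 34.2-fold, against 5.02-fold for NPSR1 and 2.34-fold for the median gene. In AKG-treated libraries GNAS had 90.5%, rank 3 of 23 genes with a median of 39.3%, and in AKG-free libraries it had 78.1%, rank 9 of 23 with a median of 63.0%. NPSR1 is not ranked in the vitrified groups because it had libraries at 0.

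**Figure D3:**
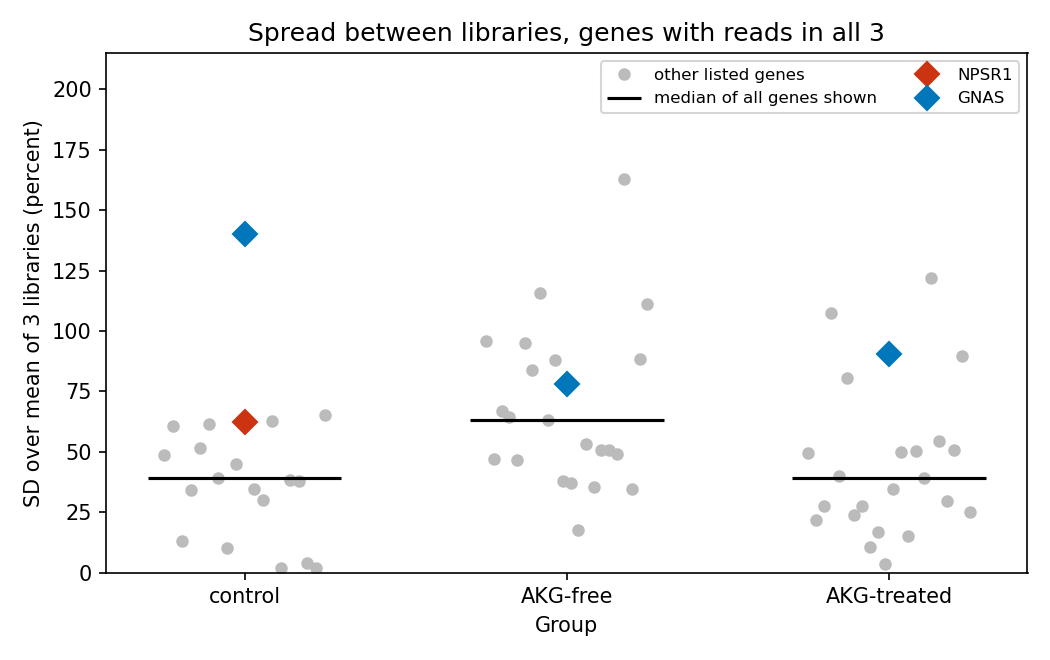
Coefficient of variation (SD over mean, percent) of each listed gene over the 3 libraries of a group, for genes with reads in all 3 and a mean of at least 0.5 FPKM over the 9 libraries; grey points are other listed genes, diamonds are NPSR1 and GNAS, black lines are medians. GNAS in controls, at 140%, lies above all other genes in that group, while in AKG-free libraries it lies at 78.1%, near the median of 63.0%.

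Other parts of the pathway were looked for among the listed genes. Of 49 receptors, G protein subunits and their regulators, NPSR1 and GNAS were listed. Of 37 genes of the cyclic AMP pathway (cyclases, protein kinase A subunits, phosphodiesterases and CREB factors) 0 were listed, and of 24 genes of the calcium and phospholipase C pathway 0 were listed. GNAS was the 1 listed gene of 34 imprinted genes. Genes on these lists that are not among the 47 were not analysed here, neuropeptide S included.

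Peptide ligands and chemokines were looked for in the same way. Those found had their highest mean in AKG-free libraries, as had 38 of the 47 listed genes, so this is not particular to them. Of 30 neuropeptides and other peptide ligands, CCK and NUCB2 were listed, and of 14 chemokines, CCL27. CCK, a peptide hormone of gut and brain, stood at 1.53 FPKM in AKG-free library 3 and 0 counts in the other 8 libraries. CCL27, a chemokine of the skin whose receptor CCR10 is G protein-coupled, stood at 3.91, 12.2 and 4.56 FPKM in AKG-free libraries 1, 2 and 3, at 0.455 FPKM in AKG-treated 1 and at 0 counts in the other 5 libraries. NUCB2, the precursor of the peptide nesfatin, had 111 to 114 FPKM in controls, 265 to 859 FPKM in AKG-free libraries and 127 to 281 FPKM in AKG-treated libraries. INSL3, a relaxin-family peptide whose receptor couples to the stimulatory G protein, was named after its values were seen: it had 1.37 FPKM in AKG-free library 2 and 0 counts elsewhere. None of NUCB2, CCL27, NPSR1 and GNAS, the 4 genes on these lists that reached the minimum for testing, was called by edgeR between AKG-treated and control libraries; NUCB2 differed by 0.82 (SE 0.58, edgeR adjusted p = 0.634).

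Genes most like NPSR1 and GNAS were found by how many of the 36 pairs of libraries they put in the same order, over the 28 other genes that reached the minimum. The libraries are shared and the genes are listed as differing, so the counts are descriptions. For GNAS, ROGDI, a leucine zipper protein, and TPRG1 each matched in 31 pairs and CARMIL1, a regulator of actin capping, in 29, where the median gene matched in 10. ROGDI had 19.6, 39.5 and 23.9 FPKM in control libraries 1, 2 and 3, 2.71 to 5.49 FPKM in AKG-free libraries, and 15.6, 12.1 and 21.7 FPKM in AKG-treated libraries 1, 2 and 3. Like GNAS, ROGDI, TPRG1 and CARMIL1 were each highest in control 2 of the control libraries, and their range in controls was narrower. Leaving out the AKG-free libraries, 15 pairs remain, and TPRG1 matched GNAS in 14 of them, ROGDI and CARMIL1 in 11, and the median gene in 6.

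For NPSR1 the closest genes with a symbol were ROGDI with 24 of 36 pairs, SYCP2, a protein of the synaptonemal complex, with 23, and TPRG1 with 22, where the median gene matched in 6.5. GNAS matched NPSR1 in 19. Without the AKG-free libraries, ROGDI matched NPSR1 in 9 of 15 pairs, SYCP2 in 8, GNAS in 5 and TPRG1 in 4, and the median gene in 5. The likeness of NPSR1 to each of these genes, ROGDI and SYCP2 included, thus lay mostly in pairs with an AKG-free library.

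NPSR1 and GNAS belong to the 9 listed genes whose mean was lowest in AKG-free libraries; the mean of the other 38 was highest there. Of the 9, 7 had control libraries all above AKG-free libraries, NPSR1 among them, and 8 had AKG-treated libraries all above AKG-free libraries, GNAS among them. GNAS was thus an exception in the first comparison and NPSR1 in the second. Over all 47 listed genes, with no minimum level, the counts were also 7 and 8. The 9 genes were picked by their low AKG-free means, so high shares among them are built in. SYCP2 had 1.64 to 1.71 FPKM in controls, against 0.0128 to 0.409 FPKM in AKG-free libraries, and TPRG1 had 0 counts in all AKG-free libraries, as NPSR1 had.

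**Figure D4:**
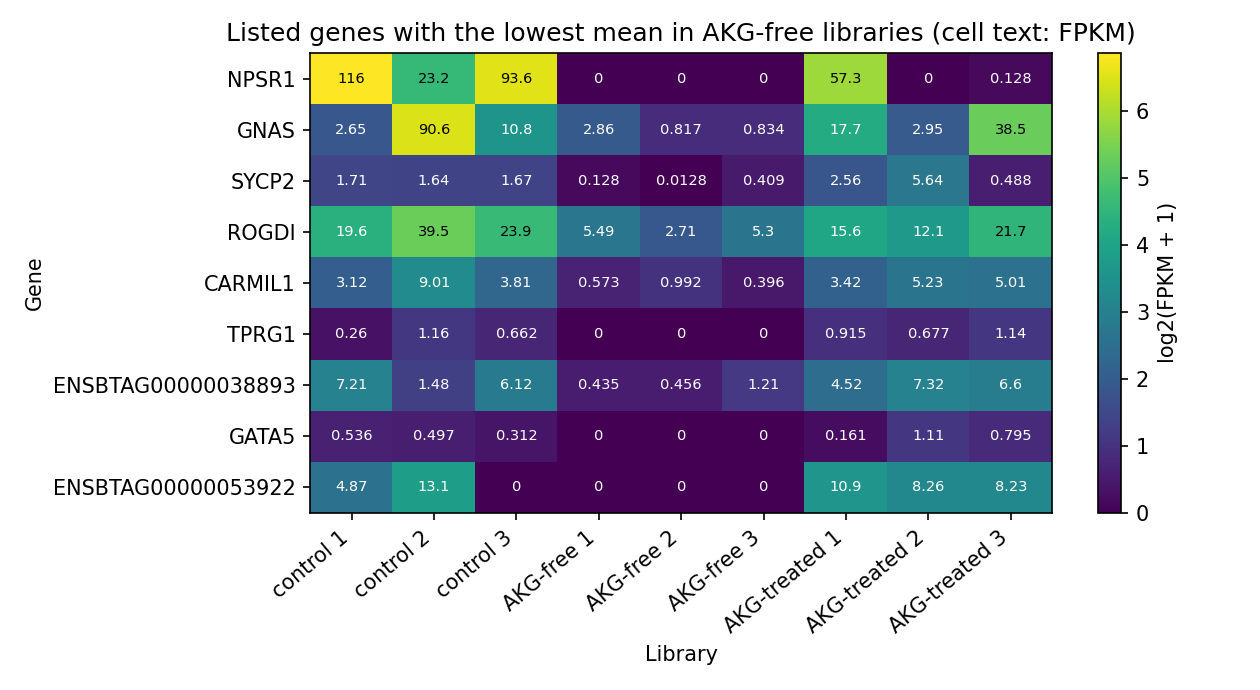
The 9 listed genes whose mean is lowest in AKG-free libraries (rows, NPSR1 and GNAS on top) in the 9 libraries (columns); colour is log2(FPKM + 1) and the text in each cell is FPKM. NPSR1 is at 0 in AKG-treated 2 and near 0 in AKG-treated 3, where ROGDI has 12.1 and 21.7 FPKM.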

How the data were processed

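The authors deposited FPKM for each library and, in a table of the series, the same FPKM with the counts of each gene, per the file headers. The 9 single-library tables equalled the series table. The submitters' processing notes name the tools HISAT2 2.0.4, cutadapt 1.9, edgeR and StringTie 1.3.4d without their roles. The labels' protocols name SMART-Seq v4 low-input libraries read in pairs. No source used here states how the 47 genes were selected. NPSR1, GNAS, the gene lists and the tests were chosen with earlier results of these data known.

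Counts over 47 genes are not depth, so relative depth came from counts over FPKM in 13 genes, each with 100 counts or more in every library, none deviating by more than 0.733%. Absolute depth is unknown. AKG-treated and control libraries were compared with edgeR 4.0.16 (quasi-likelihood, no dispersion trend, all 9 libraries in 1 fit, library sizes from relative depth, R 4.3.3) over the 29 genes with a mean of at least 0.5 FPKM, with Benjamini-Hochberg adjustment at 0.05; the SE follows from the F statistic. The step was tested on simulated data with a fixed spread between libraries that was smaller than that of NPSR1 and GNAS. That test does not cover their spread. Alternatives were DESeq2 1.42.0, limma 3.58.1 with pseudocounts of 1 and 0.1, TMM factors, other filters, 6 libraries only, the replicate number as a term, and leaving out each library. Named genes were NPSR1, GNAS, listed genes on the lists, and for each of both genes the 3 genes with a symbol that ordered most library pairs alike; a pair tied in both counted as alike. Of 34 listed genes with an Entrez ID, 34 were in the RefSeq table. Python 3.11.15 with pandas 2.3.3, scipy 1.17.1 and matplotlib 3.10.9 was used for the rest.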

Additional observations from a re-analysis of the deposited data

How the results depend on the processing

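For NPSR1, control libraries were 2532-fold above the AKG-free floor of 3 counts. This became 62.6-fold on the log2(FPKM + 1) scale, which understates a change to 0, and 7596-fold with a floor of 1 count. With the floor of 3 counts and without single libraries, it ran from 1903-fold to 3420-fold. For GNAS, control over AKG-free ran from 4.47 to 42.0 and AKG-treated over AKG-free from 6.87 to 23.9 without single libraries, and stayed above 1 with medians, log means and depth-scaled counts. Between AKG-treated and control libraries, leaving out 1 library moved NPSR1 between -10.21 and -1.44 and GNAS between -1.75 and 1.55 (log2), the latter without control library 2; no alternative gave an adjusted p under 0.05 for either gene. The number of genes called was 0 in edgeR and 1 with DESeq2, and 0 to 1 without single libraries. Of genes whose libraries did not overlap, control above AKG-free, 6 of 29 became 2 of 17 with a minimum of 5 FPKM. For AKG-treated above AKG-free, 7 of 29 became 3 of 17. Both the counts and the shares thus fell with that minimum, an alternative that was chosen after seeing the data. With the replicate block, the fits gave -8.58 for NPSR1 and -0.41 for GNAS, with 0 genes called; same-numbered libraries deviated together by r of -0.22 to 0.199 across genes, so the numbers are not taken to pair them. Each group has 3 libraries, and AKG-treated library 1 and control library 2 hold most NPSR1 and GNAS reads of their groups, in that order. At this depth, a floor of 3 counts leaves NPSR1 levels up to 0.0339 FPKM undetected in a library with 0 counts.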

Other observations

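The position of GNAS among the listed genes was looked at after the values were seen, and nothing was tested. Chromosome 13 holds 3 of the 47 listed genes, GNAS, SYCP2 and GATA5, a transcription factor of endoderm and heart, and all 3 are among the 9 genes whose mean was lowest in AKG-free libraries. SYCP2 ends 780 kb and GATA5 ends 2656 kb before the start of GNAS in the deposited coordinates. GATA5 had 0.312 to 0.536 FPKM in controls, 0 counts in the 3 AKG-free libraries and from 0.161 to 1.11 FPKM in the AKG-treated libraries, and was below the minimum for testing. Chromosome 4, which holds NPSR1, has 4 listed genes, of which NPSR1 and the long noncoding RNA ENSBTAG00000053922 are among those 9. Without the AKG-free libraries, the gene that put most library pairs in the order of NPSR1 was DMKN, a secreted protein of the skin, with 12 of 15 pairs. CYP27B1 followed with 11, and the median gene matched in 5. DMKN levels were low there, at 0.144 to 0.475 FPKM in controls and 0.0517 to 0.440 FPKM in AKG-treated libraries.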
